A study of Mus musculus with 6 samples.

Results

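Marker genes of general and tissue-resident macrophages were described in brown fat, the depot that burns lipid for warmth, of mice lacking the fatty acid transporter Cd36. The 10 genes were Lyz2, Adgre1, Mpeg1, Aif1 and Cd68 as general macrophage markers, Mrc1, Cd163 and Lyve1 as receptors of resident macrophages, and Csf1r and Csf1 as the macrophage growth factor receptor and its ligand. A gene counted as measured if a probe carried its symbol in the platform annotation. This held for 9 of the 10 genes, with 18 probes, among the 19056 genes named on the array. The level of Cd68 is not analysed here, since none of the named probes carries its symbol.

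Tissue came from Cd36 null mice and from wild type mice, all of them males of 3 months on the C57BL6J background, fasted overnight. Total RNA was hybridised to Illumina bead arrays of 1 colour, 3 per genotype. The labels give the null genotype without a promoter, a Cre line or a tissue restriction. They number the arrays 1 to 3 in each genotype and do not say whether these were separate animals, so each p-value reflects array-to-array spread that can be technical in part. In RNA of whole tissue, more macrophages and more of a transcript per macrophage cannot be told apart.

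Macrophages of adipose tissue lie between the fat cells, around vessels and in the stroma, where they clear debris and take up lipid. They develop and survive through the receptor encoded by Csf1r, which binds the growth factors encoded by Csf1 and Il34. Mrc1, Cd163 and Lyve1 encode surface receptors that take up glycoproteins, haptoglobin-bound haemoglobin and hyaluronan, and in mouse tissues they mark resident macrophages near vessels, although Lyve1 is also a marker of lymphatic endothelium.

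Between 18139 and 19199 probes were detected (detection p under 0.05) on the null arrays and between 16929 and 17035 on the wild type arrays. With 3 arrays a genotype, it is their number that limits precision. The only probe named Cd36 was detected on 0 of 3 null arrays and 1 of 3 wild type arrays and could not check the genotype labels. Levels of brown fat markers ranged widely. Ucp1, the uncoupling protein, was high, at 14.78 ± 0.05 log2 in null and 14.90 ± 0.08 in wild type tissue (SD, n = 3 each). Dio2 was lower, at 6.24 ± 0.20 in null and 6.05 ± 0.43 in wild type, as was Ppargc1a, at 7.64 ± 0.15 and 8.32 ± 0.40. All levels below are log2 of background-corrected, quantile-normalised intensity, and all differences are null minus wild type on that scale, in which dim probes show smaller differences than they have. Levels of liver and muscle markers varied between the arrays, and whether tissue makeup differed was not tested. The hepatocyte genes Alb and Fgb were detected on no array. Over the 4 tested hepatocyte markers of 6 listed, the mean level lay 4.85, 2.26 and 2.64 log2 above the wild type mean on null arrays 1 to 3, and at -0.55, -0.39 and 0.94 on wild type arrays 1 to 3. The 5 skeletal muscle markers stood at 0.58, -0.01 and -1.99 on null arrays 1 to 3, against -0.05 to 0.07 on the wild type arrays, and 0 of the 5 passed (0 also at an unadjusted p under 0.05 in limma). Results for the macrophage markers without null replicate 1 and without null replicate 3 are therefore given below.

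The general macrophage genes Lyz2, Mpeg1 and Adgre1 had the largest rises among the markers in Cd36 null brown fat, and the resident receptors divided, with Mrc1 higher while Cd163 and Lyve1 did not pass the test. The receptor gene Csf1r rose and its ligand gene Csf1 showed a difference near 0. Of the 9 measured genes, each taken by its brightest tested probe, 5 rose and 4 did not pass (limma, Benjamini-Hochberg adjusted p under 0.05 over all 17912 tested probes). Among all 10151 tested genes, 5.73% rose and 2.11% fell by the same rule. Differences of at least 1 log2 upwards were found in 4 of the 9 genes, Lyz2, Mpeg1, Adgre1 and Mrc1, and in 4.11% of all tested genes. None of the 9 genes fell, also at an unadjusted p under 0.05 in limma, and all 9 differences were positive, as were 46.1% of those of all tested genes. The median difference of the 9 genes was 0.97 log2, against -0.03 over all tested genes. In 6 of the 9 genes every null array lay above every wild type array, as in 15.6% of all tested genes. With median scaling in place of quantile normalisation, the median of all tested probes moved by 0.13 log2 and rises made up 85.6% of called probes instead of 69.2%. No marker gene changed direction under that scaling, and Aif1 then passed as well. The count of markers that rose was 5 without null replicate 1 and 4 without null replicate 3. Csf1r passed in neither of these fits, and Aif1 passed without null replicate 1 only.

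Lyz2, which encodes the lysozyme of macrophages and neutrophils, had levels of 11.50, 11.84 and 11.88 on null arrays 1 to 3, against 9.60, 9.75 and 9.74 on wild type arrays 1 to 3. The genotypes were far apart, and the spread within each was small beside the gap. The difference was 2.05 ± 0.17 log2 (SE), a 4.13-fold change with a 95% interval of 1.67 to 2.42 log2 and an adjusted p of 3.27e-04 in limma. Before normalisation the scanner intensities of this probe were 3065, 3838 and 3938 on the null arrays and 765.0, 950.2 and 912 on the wild type arrays. A second Lyz2 probe, at 10.30, 10.43 and 10.49 on the null arrays and 8.75, 8.07 and 8.65 on the wild type arrays, rose by 1.91 ± 0.21 (adjusted p = 0.00124), and the remaining one was detected on no array. Lyz1, a near-identical copy of Lyz2 expressed in Paneth cells of the gut, also rose by its brightest probe, by 1.77 ± 0.18 (adjusted p = 9.37e-04). Its other probes differed by 1.16 ± 0.27 (adjusted p = 0.0368) and 0.72 ± 0.19 (adjusted p = 0.0535), and how far probes of the 2 genes bind both transcripts was not tested. Of the tested genes, 0.581% had a larger difference than Lyz2.

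Mpeg1, which encodes the pore-forming protein perforin-2 of macrophages, had levels of 8.53, 8.85 and 8.55 on the null arrays and 6.92, 6.54 and 6.82 on the wild type arrays. All null arrays stood above all wild type arrays. Mpeg1 rose by 1.88 ± 0.18 log2 (SE, 3.68-fold, adjusted p = 6.11e-04), and its other probe was detected on no array. Adgre1, which encodes a surface receptor that defines mouse macrophages, had levels of 8.01, 8.07 and 8.22 on the null arrays and 6.77, 6.32 and 6.75 on the wild type arrays. The null arrays lay closer together than the wild type arrays, with an SD of 0.11 in null and 0.25 in wild type, and the groups did not overlap. Adgre1 rose by 1.48 ± 0.18 (2.80-fold, adjusted p = 0.00206). Its second probe, at 7.12, 7.17 and 7.29 on the null arrays and 5.84, 6.29 and 6.38 on the wild type arrays, rose by 1.03 ± 0.19 (adjusted p = 0.0118).

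Aif1, which encodes the calcium-binding protein IBA1 of macrophages, was more variable. Its levels were 6.69, 7.39 and 7.46 on null arrays 1 to 3 and 5.83, 6.31 and 6.69 on wild type arrays 1 to 3. Null replicate 1 lay level with wild type replicate 3, so the groups only just failed to overlap. The difference of 0.90 ± 0.27 log2 (SE, 95% interval 0.29 to 1.52) did not pass over all probes (adjusted p = 0.086). A second Aif1 probe, at 6.11, 6.65 and 7.001 on the null arrays and 5.89, 5.56 and 6.49 on the wild type arrays, differed by 0.61 ± 0.29 (adjusted p = 0.271). Aif1 passed without null replicate 1 (1.15, adjusted p = 0.0364).

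**Figure D1:**
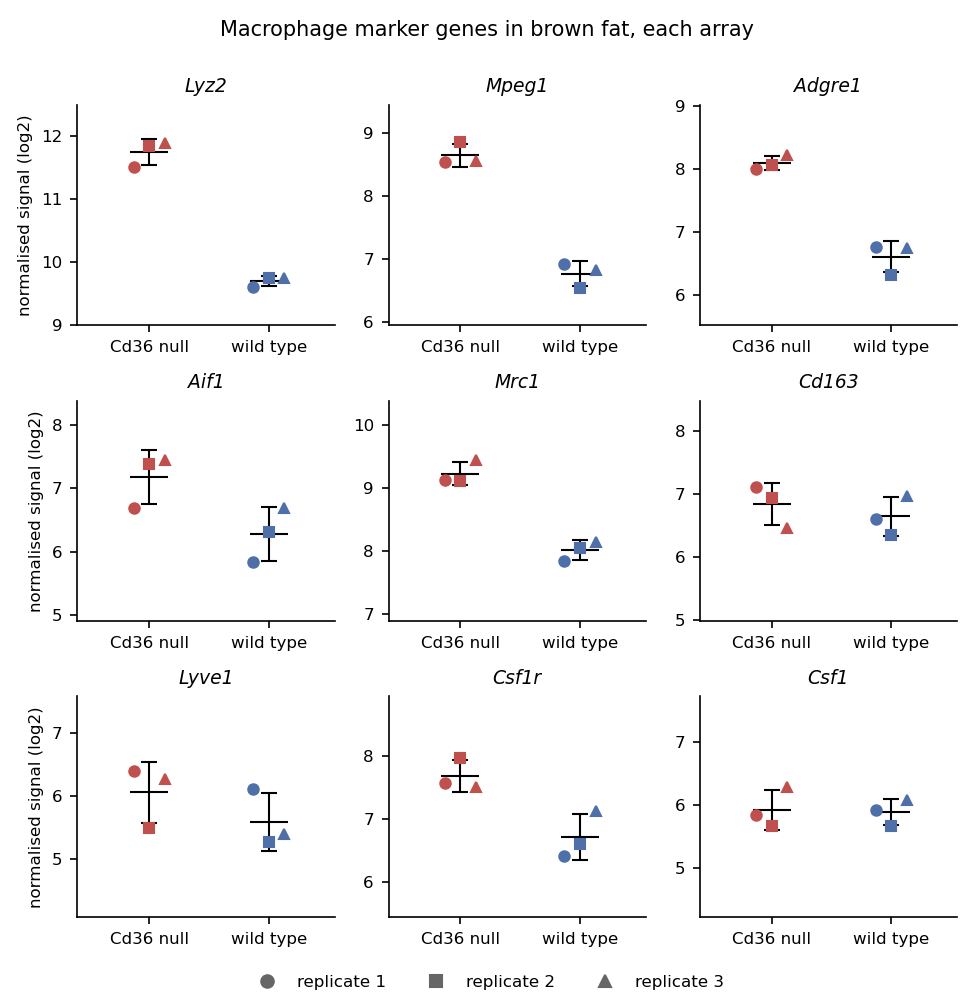
Normalised signal (log2, y axis) of the brightest tested probe of each macrophage marker gene in Cd36 null (red) and wild type (blue) brown fat, 1 point per array, with the mean and SD of 3 arrays in black. Each panel spans the same range of log2 units. Lyz2, Mpeg1, Adgre1, Mrc1 and Csf1r are separated between genotypes, Aif1 barely so, and Cd163, Lyve1 and Csf1 overlap.

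Mrc1, which encodes the mannose receptor CD206, was the only resident receptor that rose. It had levels of 9.13, 9.12 and 9.44 on the null arrays and 7.84, 8.05 and 8.15 on the wild type arrays. The groups lay apart by more than the range within either. The difference was 1.21 ± 0.17 log2 (SE, 2.32-fold, 95% interval 0.83 to 1.60, adjusted p = 0.00392 in limma), by the only Mrc1 probe.

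Cd163, which encodes the receptor for haptoglobin-bound haemoglobin, had levels of 7.10, 6.94 and 6.46 on null arrays 1 to 3 and 6.60, 6.35 and 6.97 on wild type arrays 1 to 3. Null replicate 3 lay below wild type replicates 1 and 3. The difference was 0.19 ± 0.23 log2 (SE) with an adjusted p of 0.687. Its 95% interval of -0.32 to 0.70 ended below the interval of Mrc1, although the difference between the 2 responses was not tested. The second Cd163 probe was detected on no array.

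Lyve1, the hyaluronan receptor, had levels of 6.40, 5.50 and 6.28 on null arrays 1 to 3 and 6.12, 5.27 and 5.40 on wild type arrays 1 to 3. The values formed a high set (null replicates 1 and 3, wild type replicate 1) and a low set that mixed the genotypes. The difference was 0.47 ± 0.29 log2 (SE, 95% interval -0.20 to 1.13, adjusted p = 0.415), an interval that holds both no change and a rise close to that of Mrc1. Markers of lymphatic endothelium were also highest on null replicates 1 and 3. Their mean over 3 tested genes of 6 listed stood 0.88, 0.21 and 0.85 log2 above the wild type mean on null arrays 1 to 3, and at -0.07, -0.09 and 0.16 on wild type arrays 1 to 3. Of these 3 genes, Ccl21a, a chemokine of lymphatic endothelium, rose by 0.97 ± 0.22 (adjusted p = 0.0292) and Pdpn, the glycoprotein podoplanin, by 0.74 ± 0.18 (adjusted p = 0.0383), while Reln differed by 0.24 ± 0.27 (adjusted p = 0.674). Ccl21a passed under 10 of 15 alternatives and Pdpn under 8 of 15 (limma, highest adjusted p over the alternatives 0.113 for Ccl21a and 0.119 for Pdpn). Both calls ended with no filter, without null replicate 1 or 3 and without wild type replicate 1 or 2. That of Pdpn also ended without wild type replicate 3 and with the replicate block. Prox1, the defining transcription factor of lymphatic endothelium, was detected by 1 of its 2 probes on 2 of 3 null arrays and 0 of 3 wild type arrays and was not tested for a difference. Flt4, a growth factor receptor of this endothelium, was detected by 1 of its 3 probes on 0 of 3 null arrays and 1 of 3 wild type arrays, at 4.48, 4.52 and 4.36 in null and 5.05, 5.24 and 4.94 in wild type, and was not tested either. Mmrn1 was detected by each of its 2 probes on 1 of 3 null arrays and 0 of 3 wild type arrays. The part of lymphatic endothelium in the Lyve1 signal was not tested.

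Csf1r had levels of 7.56, 7.97 and 7.50 on null arrays 1 to 3 and 6.41, 6.59 and 7.11 on wild type arrays 1 to 3. The groups did not overlap, but wild type replicate 3 came nearest to the null arrays. Csf1r rose by 0.97 ± 0.22 log2 (SE, 1.96-fold, 95% interval 0.47 to 1.48, adjusted p = 0.0327). The second Csf1r probe gave a signal above background on 3 of 3 null arrays and on 0 of 3 wild type arrays. Its levels were 5.53, 5.43 and 5.70 on the null arrays and 5.06, 4.89 and 4.48 on the wild type arrays, at least 1.35-fold higher in null (adjusted p = 0.0488), and it was tested only through its level in null tissue. The call of the brighter probe ended without null replicate 1, 2 or 3 (adjusted p = 0.0556, 0.114 and 0.0508) and without wild type replicate 1 or 2 (adjusted p = 0.11 and 0.122).

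Csf1, the ligand, had levels of 5.83, 5.66 and 6.28 on null arrays 1 to 3 and 5.92, 5.66 and 6.08 on wild type arrays 1 to 3. The ranges overlapped almost wholly. The difference was 0.04 ± 0.21 log2 (SE, adjusted p = 0.947), and its 95% interval of -0.43 to 0.50 left room for changes of that size in either direction. Il34, the other ligand of this receptor, was detected on 2 of 3 arrays of each genotype and differed by 0.05 ± 0.31 (adjusted p = 0.959).

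**Figure D2:**
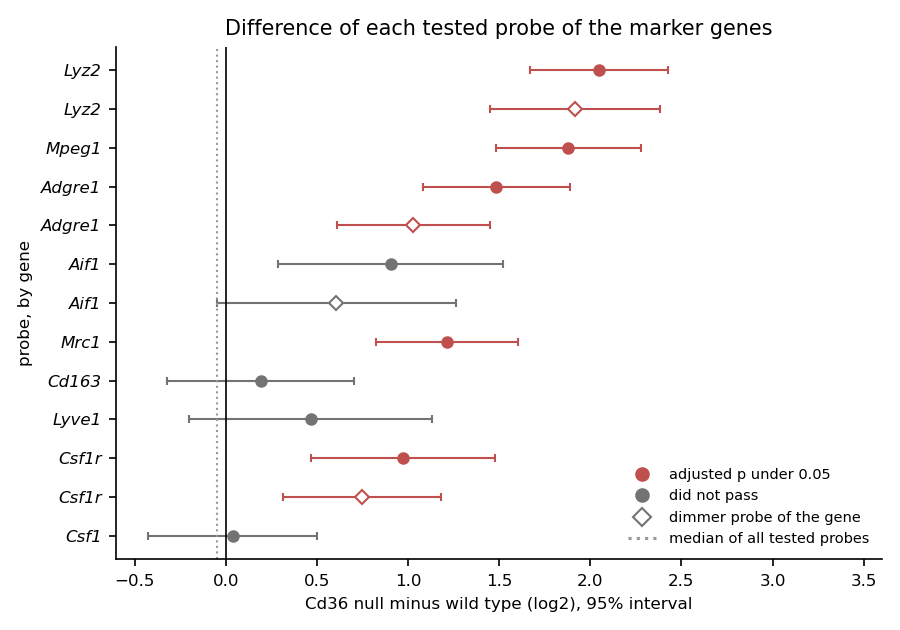
Difference of each of the 13 tested probes of the marker genes, Cd36 null minus wild type (log2, x axis), with its 95% interval. Filled circles are the brightest probe of a gene, open diamonds its dimmer probe, red marks probes with an adjusted p under 0.05, and the dotted line is the median of all tested probes at -0.05. Lyz2 and Mpeg1 lie farthest to the right, and the intervals of Cd163, Lyve1, Csf1 and the dimmer Aif1 probe cross 0.

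Of the 18 probes, 13 were tested, 8 of these rose, with the second Csf1r probe among them detected in null tissue only, and in 9 the null arrays all lay above the wild type arrays. Among all tested probes, 5.01% rose, 2.23% fell and 13.6% were separated upwards. Lyz2, Adgre1 and Aif1 had a second probe detected on all 6 arrays, with a difference of the same sign and the same call. The other 5 probes were not tested. Of these, 4 were detected on no array and 1, the third probe of Adgre1, on 2 of 3 null arrays and 0 of 3 wild type arrays. In the authors' processed table the differences of the 9 genes ran in the same direction, at 2.00 for Lyz2, 1.61 for Mpeg1, 1.23 for Adgre1, 1.12 for Mrc1, 0.79 for Csf1r, 0.69 for Aif1, 0.29 for Lyve1, 0.15 for Cd163 and 0.03 for Csf1. The same 5 genes passed there when its values were fitted with limma.

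Promoter sequence is shown for the 3 genes with the smallest adjusted p among those that rose and had an entry in the RefSeq promoter table (GRCm38.p6), and for Cd163 as a resident receptor that did not pass. Entries of 7 of the 10 genes were searched. Adgre1 and Lyve1 had no entry, and Csf1r was left out of the search. Each sequence runs 5′ to 3′ from 250 bases before to 50 bases after the start of the gene. Capitals mark the motif GAGGAA on either strand, the PU box, a site bound by PU.1, a transcription factor of macrophage genes. Other forms of PU.1 site were not searched.
Lyz2: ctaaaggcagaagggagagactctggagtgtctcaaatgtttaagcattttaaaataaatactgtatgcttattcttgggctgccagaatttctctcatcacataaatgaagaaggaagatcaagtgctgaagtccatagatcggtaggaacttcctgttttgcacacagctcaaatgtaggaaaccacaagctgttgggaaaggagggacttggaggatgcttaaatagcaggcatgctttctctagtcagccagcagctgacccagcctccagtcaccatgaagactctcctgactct
Mpeg1: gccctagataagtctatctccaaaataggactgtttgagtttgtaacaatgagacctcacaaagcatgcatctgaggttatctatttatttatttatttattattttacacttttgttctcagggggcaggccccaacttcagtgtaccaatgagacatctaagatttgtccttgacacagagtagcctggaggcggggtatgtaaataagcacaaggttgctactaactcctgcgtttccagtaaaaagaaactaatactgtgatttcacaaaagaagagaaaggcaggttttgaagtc
Mrc1: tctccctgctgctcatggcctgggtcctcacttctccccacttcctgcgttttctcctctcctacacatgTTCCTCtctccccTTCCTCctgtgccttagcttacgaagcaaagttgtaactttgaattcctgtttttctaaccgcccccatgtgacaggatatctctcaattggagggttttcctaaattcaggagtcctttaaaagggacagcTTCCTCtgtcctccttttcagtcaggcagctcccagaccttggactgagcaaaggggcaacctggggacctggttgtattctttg
Cd163: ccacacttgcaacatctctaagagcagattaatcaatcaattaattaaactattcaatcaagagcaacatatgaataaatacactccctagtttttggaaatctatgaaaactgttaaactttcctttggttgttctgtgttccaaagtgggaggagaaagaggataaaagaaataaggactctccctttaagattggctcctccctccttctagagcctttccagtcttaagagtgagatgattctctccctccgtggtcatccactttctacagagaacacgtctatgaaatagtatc
The Lyz2 sequence lies at chr10:117282223-117282522, minus strand, Mpeg1 at chr19:12460520-12460819, plus strand, Mrc1 at chr2:14229164-14229463, plus strand and Cd163 at chr6:124304401-124304700, plus strand. The Mrc1 promoter held GAGGAA 3 times, each on the reverse strand, at positions -180, -167 and -35 relative to the gene start, whereas those of Lyz2, Mpeg1 and Cd163 held none. The motif was present in 3 of the 7 promoters, those of Mrc1, Aif1 and Cd68, and in 28.3% of all 32851 promoters of this length. TATAAA, searched on both strands, was present in 0 of the 7 and in 13.6% of all. With no TATAAA match in these promoters, the capitals mark GAGGAA alone.

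Further general macrophage genes were mostly higher. These lists were chosen with earlier results of these data known, and are described by counts. Of 16 further general macrophage genes, 11 were tested and 7 rose, 4 did not pass, and the median was 1.39 log2. The complement genes C1qc and C1qb rose by 1.47 ± 0.16 and 1.64 ± 0.20 (SE, adjusted p = 0.00117 and 0.00227). Fcer1g, the signalling chain of Fc receptors, rose by 1.66 ± 0.20 (adjusted p = 0.00201). Laptm5, a lysosomal membrane protein of leukocytes, rose by 1.49 ± 0.16 (adjusted p = 0.00136), and Sirpa, the receptor for the CD47 signal, by 1.40 ± 0.17 (adjusted p = 0.00201). Cd14, the lipopolysaccharide co-receptor, differed by 0.67 ± 0.21 without passing (adjusted p = 0.1). Itgam, Cybb, Ptprc and Msr1 were detected on no array and were not tested.

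Of 14 further resident macrophage genes, 12 were tested and 8 rose, with 4 not passing and a median of 1.07 log2, or 0.99 with Siglec1 at its bound. The macrophage lectin genes Clec10a and Mgl2 rose by 1.41 ± 0.16 and 0.92 ± 0.17 (SE, adjusted p = 0.00188 and 0.0129), and Fcna, a ficolin, rose by 1.73 ± 0.21 (adjusted p = 0.00227). Siglec1, the sialic acid receptor CD169, reached detection on 3 of 3 null arrays, against 0 of 3 in wild type, and stood at least 1.45-fold higher (adjusted p = 0.0106), being tested only through its level in null tissue. Without wild type replicate 2 Siglec1 and Mgl2 did not pass, and Mgl2 also not without wild type replicate 1 (highest adjusted p over the alternatives 0.0554 for Siglec1 and 0.0607 for Mgl2). Folr2, the folate receptor of resident macrophages, rose by 1.06 ± 0.20 (adjusted p = 0.0139). Pf4 and Stab1, other transcripts of resident macrophages, differed by 0.22 ± 0.21 (adjusted p = 0.604) and 0.30 ± 0.23 (adjusted p = 0.513), without passing. Cbr2 and Cd209b did not pass either, at 0.70 ± 0.22 (adjusted p = 0.095) and 0.52 ± 0.21 (adjusted p = 0.197). In both of these genes every null array lay above every wild type array. Timd4 was detected on 0 of 3 null arrays and 1 of 3 wild type arrays and Vsig4 on 2 of 3 null arrays and 0 of 3 wild type arrays, and neither was tested.

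Around the CSF1 receptor, 9 of 16 listed genes were tested and 3 rose, with 6 not passing and a median of 0.57 log2. At the bound for Spi1, which no wild type array detected, the median was 0.45. Tyrobp, a signalling adaptor of myeloid cells, rose by 1.52 ± 0.21 (SE, adjusted p = 0.00366), and Irf8, a transcription factor of the myeloid lineage, by 1.07 ± 0.21 (adjusted p = 0.0163). Plcg2, a phospholipase of this pathway, rose by 0.79 ± 0.18 (adjusted p = 0.0287). Tyrobp passed under all 15 alternatives and Irf8 under 12 of 14, not without null replicate 2 (highest adjusted p over the alternatives 0.0645). Plcg2 passed under 8 of 15, not without null replicate 1 or 2 or wild type replicate 1 or 2 (highest adjusted p over the alternatives 0.123). Spi1, which encodes PU.1, was detected on 3 of 3 null arrays and 0 of 3 wild type arrays and did not pass (adjusted p = 0.155). Csf2ra, a receptor subunit for the growth factor GM-CSF, differed by 0.86 ± 0.24 (adjusted p = 0.0708), and Cebpa, which fat cells also express, by -0.62 ± 0.20 (adjusted p = 0.101).

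Genes of lipid-associated macrophages showed larger single differences than the markers. Of 13, 9 were tested and 6 rose, with 3 not passing and a median of 1.38 log2. Those not passing were Fabp5, Cd9 and Plin2, at 0.0045, 0.40 and 0.41 (adjusted p = 0.994, 0.24 and 0.232). Gpnmb, a glycoprotein of lipid-laden macrophages, had the largest at 4.22 ± 0.24 (SE, adjusted p = 6.33e-05), above that of Lyz2. Lgals3, the lectin galectin-3, rose by 3.28 ± 0.19 (adjusted p = 7.19e-05) and Mmp12, a macrophage elastase, by 2.61 ± 0.25 (adjusted p = 6.11e-04). Mmp12 was detected on 1 of 3 wild type arrays. Trem2, a receptor for lipids, had no detection in wild type (0 of 3 arrays) and was tested only through its level in null tissue. It stood at least 4.61-fold higher there (adjusted p = 3.05e-04). Lipa, the lysosomal lipase, rose by 0.99 ± 0.23 (adjusted p = 0.0351), close to Csf1r. The differences between these responses were not tested.

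**Figure D3:**
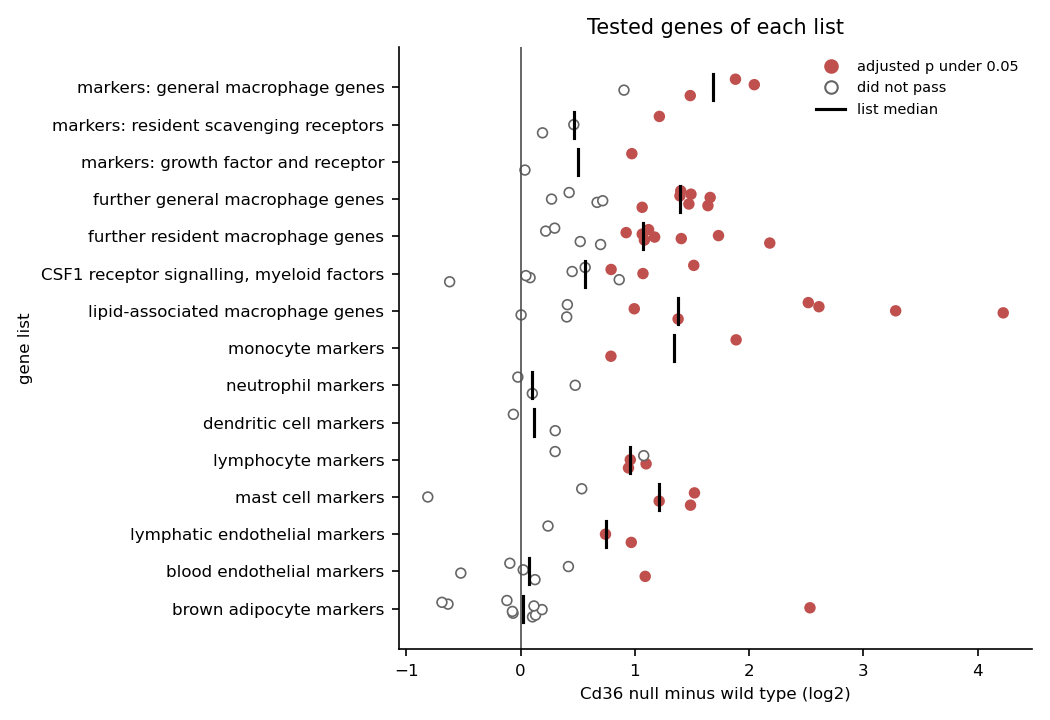
Difference between genotypes of each tested gene, Cd36 null minus wild type (log2, x axis), by gene list (y axis). Each point is 1 gene by its brightest tested probe, red if its adjusted p was under 0.05, and black bars are list medians. The general markers have a median of 1.68, the resident receptors 0.47 and the brown adipocyte markers 0.02.

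Markers of other cells that share some of these transcripts were set beside the markers. Neutrophils also express Lyz2. Of 8 neutrophil genes, 3 were tested and 0 rose (0 also fell, with 1 higher and 0 lower at an unadjusted p under 0.05 in limma). S100a8 differed by 0.48 ± 0.21 (SE, adjusted p = 0.22), S100a9 by -0.02 ± 0.23 (adjusted p = 0.972) and Csf3r by 0.10 ± 0.24 (adjusted p = 0.859), while Camp and Ltf were detected on no array. Of 5 monocyte genes, 2 were tested. Plac8, a protein of monocytes and other leukocytes, rose by 1.89 ± 0.27 (adjusted p = 0.00426) and passed under all 15 alternatives. Chil3, a chitinase-like protein, was detected on 3 of 3 null arrays and 0 of 3 wild type arrays and was tested only through its level in null tissue. It was at least 1.12-fold higher there (adjusted p = 0.0202), and passed under 5 of 14 alternatives, not with the authors' values (adjusted p = 0.119) and not without any null array or without wild type replicate 1 or 2. Ccr2, the defining chemokine receptor of monocytes, was detected on no array.

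Among other immune cells, genes of T cells and of mast cells rose in part. Of 5 tested lymphocyte genes of 8 listed, the T cell genes Cd3d, Cd3e and Cd2 passed. Cd3d, Cd3g and Cd2 were detected on 0 of 3 wild type arrays, so they were tested only through their level in null tissue and their calls are given as a description. Cd3e, a chain of the T cell receptor complex, rose by 0.96 ± 0.20 (SE, adjusted p = 0.0235). It passed under 8 of 14 alternatives, and its call ended without null replicate 2 or 3 or wild type replicate 1 or 2 (highest adjusted p over the alternatives 0.0873). Of the B cell genes, Cd79b differed by 0.30 ± 0.23 (adjusted p = 0.497), and Ms4a1 was detected on no array. Of 5 mast cell genes, 3 rose (median 1.21), among them Mcpt4, a protease, by 1.52 ± 0.23 (adjusted p = 0.00575) and Cpa3, a carboxypeptidase, by 1.21 ± 0.22 (adjusted p = 0.0129), while Kit, a growth factor receptor, differed by -0.81 ± 0.25 (adjusted p = 0.0934). Mcpt4 passed under all 15 alternatives and Cpa3 under 12 of 15, not without null replicate 2 or wild type replicate 2 (highest adjusted p over the alternatives 0.0573). Of 7 dendritic cell genes, 2 were tested and 0 passed in either direction, with 0 at an unadjusted p under 0.05 in limma (Zbtb46 at -0.06 and Batf3 at 0.30, both transcription factors). Xcr1, Clec9a and Cd209a were detected on no array.

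Most fat and vessel markers did not pass. Of 10 tested brown adipocyte genes of 12 listed, 1 rose, Elovl3, a fatty acid elongase, by 2.53 ± 0.20 (SE, adjusted p = 3.05e-04), and the median was 0.02 log2. At an unadjusted p under 0.05, 1 was higher and 2 lower. These 2 were Pparg, the transcription factor of fat cells, at -0.64 ± 0.19 (adjusted p = 0.0828), and its coactivator Ppargc1a, at -0.69 ± 0.22 (adjusted p = 0.099). They passed as lower under 6 and 2 of 15 alternatives, Pparg also without null replicate 3 and Ppargc1a without wild type replicate 3. Of 6 tested blood endothelial genes of 7 listed, 1 rose, Cldn5, a tight junction protein, by 1.09 ± 0.27 (adjusted p = 0.044), and Pecam1, an adhesion molecule, differed by 0.42 ± 0.17 (adjusted p = 0.186). Emcn, an endothelial sialomucin, differed by -0.52 ± 0.18 (adjusted p = 0.13), with every null array below every wild type array. The call of Cldn5 held under 9 of 15 alternatives and ended without null replicate 1 or 3 or wild type replicate 2 or 3 (highest adjusted p over the alternatives 0.144).

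The hepatocyte markers moved with genotype as well, with 4 of 4 tested genes higher at a median of 3.46 log2. Their mean level ranged from 9.59 to 12.18 on the null arrays and from 6.77 to 8.27 on the wild type arrays, while Alb and Fgb were detected on no array. Cyp2e1, an oxidase of hepatocytes, passed under all 15 alternatives, Apoa2 and Ttr, which encode plasma proteins, under 9 and 11 of 15, and Ahsg, another of them, under 8 of 14. The calls of Apoa2, Ttr and Ahsg each ended without wild type replicate 1 or 2. The mean of the 4 general macrophage markers lay 1.35, 1.70 and 1.69 log2 above the wild type mean on null arrays 1 to 3, and at -0.06, -0.11 and 0.16 on wild type arrays 1 to 3. On the null arrays it was lowest, and on the wild type arrays highest, where the hepatocyte mean was highest. The part of liver RNA in the macrophage results was not tested. Of the markers of Kupffer cells, the macrophages of liver, Cd5l was detected on no array, Clec4f by 1 of its probes on 1 of 3 null arrays and 0 of 3 wild type arrays, and Marco on 0 of 3 null arrays and 1 of 3 wild type arrays. Without null replicate 1, Lyz2 differed by 2.16 (adjusted p = 4.64e-04), Mpeg1 by 1.94 (adjusted p = 0.00162), Adgre1 by 1.53 (adjusted p = 0.005) and Mrc1 by 1.27 (adjusted p = 0.00879). Without null replicate 3, on which muscle transcripts were lowest, the same 4 genes differed by 1.97, 1.93, 1.42 and 1.11, with adjusted p between 0.00148 and 0.0139.

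**Figure D4:**
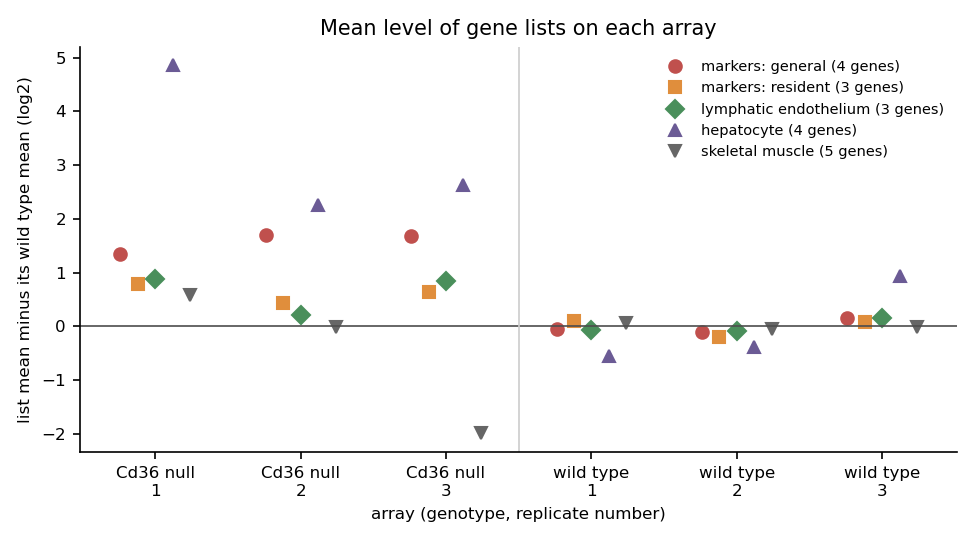
Mean level of 5 gene lists on each array, minus the list's own wild type mean (log2, y axis), for Cd36 null arrays 1 to 3 and wild type arrays 1 to 3 (x axis). The general macrophage markers lie between 1.35 and 1.70 on the null arrays, hepatocyte markers between 2.26 and 4.85, and skeletal muscle markers reach -1.99 on null array 3.

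As a group, the 9 marker genes had mean values of 0.44, 0.51 and 0.59 log2 on null arrays 1 to 3 and -0.53, -0.66 and -0.34 on wild type arrays 1 to 3, each gene centred on its own mean. The genes most like this pattern, by root mean square distance over the 6 arrays among 9863 other tested genes, were Myrip, H2-Q5, Sh3bp2, Il7r, Dnmt3l, Litaf, Adamts12 and Slc27a2. Their distances ran from 0.0491 for Myrip, a Rab27 and myosin linker, to 0.104 for Slc27a2, a fatty acid transport protein. Each of these 8 differed by 0.94 to 1.12 log2. Il7r was not detected on all 6 arrays and stood near background in wild type tissue, at a mean of 4.57. Its difference was 1.02, and 0.47 with the authors' values. The distances are a description over 6 arrays that lie in 2 groups.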

How the data were processed

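Total RNA of brown adipose tissue was measured on 6 Illumina bead arrays, 3 from Cd36 null and 3 from wild type mice. In the deposited scanner table, per the file headers, every array has an unnormalised linear intensity and a detection p-value for each probe. The authors' deposited table holds log2 values. The submitters' processing notes name limma, without steps or version. Against neqc at offset 50 the largest deviation of that table was 0.024 log2, so scale, direction and the lack of centring are known. Its column medians were 5.92 to 5.93.

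Intensities were corrected with neqc (limma 3.58.1, R 4.3.3; background from the detection p-values, offset of 16, quantile normalisation). Probes detected (p under 0.05) on 3 or more arrays were tested with lmFit and eBayes and adjusted by Benjamini-Hochberg, at a threshold of 0.05. The fit was tested on simulated data. Of 45267 probes, 34875 had 1 gene symbol, 18 had several and 10374 were unlisted, and 34797 were found in the RefSeq table of GRCm38.p6. A further 970 scanner probes entered normalisation only. A gene stands by its brightest tested probe. Where no array of a genotype detected a probe, the fold is a bound: on each array of that genotype the probe's value is raised to the lowest detected signal if it lies below it, and the other genotype's mean is set against these values.

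The members and the 15 other gene lists were chosen with earlier results of these data known. Named are all members, up to 4 genes of smallest p per other list, Lyz1, Cd36 and the 8 genes of most similar pattern. Beyond this rule, other genes were named after their values were seen. These were C1qb, Cd14, Folr2, Pf4, Stab1, Cbr2, Cd209b, Il34, Spi1, Cebpa, Lipa, Fabp5, Cd9, Plin2, Ucp1, Cd79b and untested list members. Alternatives changed the values, offset, background correction, scaling, filter, array weights, variance estimation, replicate block and each array.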

Additional observations from a re-analysis of the deposited data

Results flagged for a closer look

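The third probe of Adgre1, which was too dim to be tested, was detected on 2 of 3 null arrays and 0 of 3 wild type arrays. Its normalised level was 4.94, 4.89 and 5.16 log2 on null arrays 1 to 3, against 4.70, 4.51 and 4.51 on wild type arrays 1 to 3. It drew attention because a signal in data outside the tests stood above the level of the wild type arrays. With the wild type values raised to the lowest detected signal, the bound was 0.914-fold, so no rise was shown.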

How the results depend on the processing

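Lyz2, Mpeg1, Adgre1 and Mrc1 passed under all 15 alternatives, with Lyz2 between 1.92 and 2.16 log2 and Mrc1 between 0.96 and 1.34. Cd163, Lyve1 and Csf1 passed under none of the 15, with Cd163 between 0.05 and 0.41, Lyve1 between 0.17 and 0.74 and Csf1 between -0.14 and 0.25. Csf1 turned to -0.14 without null replicate 3 and to -0.07 without wild type replicate 2, and the cause was not tested. Csf1r passed under 8 of 15 (adjusted p = 0.00528 to 0.122), and not with no filter (adjusted p = 0.0953). Aif1 passed under 5 of 15 (adjusted p = 0.0168 to 0.233). The count of markers that rose was 5, and 4 to 6 over the alternatives.

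The median of the 9 markers, 0.97 log2, was 0.79 with the authors' values, 0.78 with an offset of 50, 0.57 without background correction, 1.16 with median scaling, 1.12 with array weights and 0.83 to 1.18 with 1 array left out. Higher and lower probes numbered 1359 and 228 with median scaling and 1430 and 958 with array weights, against 897 and 399. With 1 array left out they numbered 476 to 780 and 113 to 263. Turned directions among genes that did not pass were S100a9 (0.18) and Zbtb46 (0.15) with median scaling, Zbtb46 with array weights (0.061), Cidea (-0.03) with median scaling, and, with 1 array left out, S100a9 (-0.19 to 0.16), Zbtb46 (-0.20 to 0.084), Cdh5 (-0.025 to 0.26), Csf3r (-0.073 to 0.38), Acta1 (-0.56 to 0.20), Ckm (-1.42 to 0.25), Myh4 (-1.28 to 0.28) and Mylpf (-0.85 to 0.30), with the cause not tested.

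Arrays of the same replicate number deviated together at r = 0.0838, -0.0181 and 0.03 over tested probes. With deviations centred over 3 arrays, these values cannot settle whether the number pairs arrays. Null replicate 1 and wild type replicate 1 were each other's best match, and null replicate 3 matched best with wild type replicate 3. The other arrays matched best with another number. With the replicate block, 218 probes were lower and the block left 5 markers higher, with Aif1 passing (adjusted p = 0.0332) and Csf1r not (adjusted p = 0.0688).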
